A study of Sus scrofa domesticus with 8 samples.

Results

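Steroid synthesis in cultured pig granulosa cells is described here through 4 genes, HSD3B1, HSD17B1, FDXR and CYP17A1. They were taken by symbol from the platform annotation, in which each had 1 feature (a set of probes that the array reports as 1 value), out of 10707 genes with a feature of a single symbol and 27558 features in all. The study used 43 crossbred Landrace gilts (young female pigs) with a median age of 170 days. Granulosa cells are the somatic cells inside the ovarian follicle, around the oocyte. RNA taken after 0 h, 48 h, 96 h and 144 h of culture was measured on Affymetrix arrays, 2 per time and 8 in all. All cultured cells were kept at 37 °C in DMEM with 2% fetal bovine serum, 4 mM L-glutamine, gentamicin, penicillin and streptomycin, the medium given for every sample; no hormone is named in it. Nothing in the labels tells whether the arrays of one time stem from different gilts, pools or dishes. The p-values therefore cover the spread between arrays, and that spread may be technical.

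Ovarian steroid synthesis starts from cholesterol, which mitochondrial CYP11A1 cleaves to pregnenolone with electrons that FDXR passes on through ferredoxin. HSD3B1 turns pregnenolone into progesterone, CYP17A1 leads on to androgens, aromatase makes oestrogens of them, and HSD17B1 reduces the weak oestrogen estrone to estradiol. In the follicle, theca cells carry CYP17A1 and supply androgens, while granulosa cells carry aromatase and HSD17B1 and make estradiol. When granulosa cells luteinize, they turn to the synthesis of progesterone.

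Values are log2 intensities that the authors had normalized with RMA, which sets all arrays to a common distribution and so hides any change that most transcripts share. Differences are between means of 2 arrays, with the standard error (SE) from 1 limma model over all 8 arrays, and p-values are adjusted by Benjamini-Hochberg over all 27558 features. Features with an adjusted p below 0.05 count as called. Detection calls were not used here, so a level near an array's lower quartile (3.13 to 3.25 over the 8 arrays) is not shown to lie above background. No fold is given for a difference that starts or ends near it. Replicate arrays were closest at 96 h, where the SD of their difference over all features was 0.162, and farthest apart at 144 h (0.382). In bulk RNA, fewer cells of a type and less RNA per cell cannot be told apart. Of the 4 genes, 3 changed over time by limma's F test, against 47.5% of all features, and CYP17A1 did not pass (adjusted p = 0.143).

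HSD3B1 was much higher at every time in culture than at 0 h. Its level was 3.62 and 3.17 at 0 h, 10.42 and 10.29 at 48 h, 9.77 and 9.69 at 96 h, and 9.81 and 9.91 at 144 h. The 6 cultured arrays lay far above both 0 h arrays, with no overlap. On the 0 h arrays it stood at the 33.3 and 23.4 percentile of all features, near the lower quartile, and on the cultured arrays between the 97.4 and the 98.8 percentile. The difference was 6.96 ± 0.16 at 48 h against 0 h (adjusted p = 3.52e-07). At 96 h it was 6.33 ± 0.16 (adjusted p = 1.51e-07), and at 144 h 6.46 ± 0.16 (adjusted p = 1.50e-07). Since the 0 h level is not shown to lie above background, the size of these 3 differences is not exact.

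Within culture, HSD3B1 was highest at 48 h. It was 1.55-fold lower at 96 h than at 48 h, a difference of -0.63 ± 0.16 (adjusted p = 0.0190). That call was lost when any 1 of the 4 arrays of these times was left out, with adjusted p from 0.0535 to 0.115. The levels at 144 h and 48 h differed by -0.50 (95% interval -0.86 to -0.14, adjusted p = 0.104), and those at 144 h and 96 h by 0.13 (95% interval -0.23 to 0.49, adjusted p = 0.623). The order of levels was thus 48 h, 144 h, 96 h and 0 h, in which only the last step was called between neighbours.

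HSD17B1 moved the other way. Its level was 10.78 and 10.90 at 0 h, 5.60 and 5.76 at 48 h, 4.15 and 3.87 at 96 h, and 4.32 and 4.10 at 144 h. Both 0 h arrays lay above all 6 cultured arrays, and both 48 h arrays lay above the 4 later ones. At 48 h HSD17B1 was 35.8-fold lower than at 0 h, a difference of -5.16 ± 0.14 (adjusted p = 4.42e-07). Against 0 h the difference reached -6.83 ± 0.14 at 96 h (adjusted p = 9.92e-08) and -6.63 ± 0.14 at 144 h (adjusted p = 9.62e-08). On its array it stood at the 99.3 and 99.5 percentile at 0 h, at 62.9 and 64.5 at 48 h, and between 39.3 and 47.0 at the later times.

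HSD17B1 fell further after 48 h. The difference was -1.67 ± 0.14 at 96 h against 48 h (adjusted p = 0.000131) and -1.47 ± 0.14 at 144 h against 48 h (adjusted p = 0.000828). Between 144 h and 96 h it was 0.20 (95% interval -0.13 to 0.53, adjusted p = 0.373), and the arrays of these times overlapped. The order was therefore 0 h, 48 h, 144 h and 96 h, and the final pair did not differ beyond its spread.

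FDXR, the mitochondrial reductase that feeds electrons to CYP11A1, also fell, by less. Its level was 7.85 and 7.78 at 0 h, 5.49 and 5.36 at 48 h, 3.94 and 3.93 at 96 h, and 4.51 and 4.32 at 144 h. No times overlapped, and the 96 h arrays were the lowest. At 48 h FDXR was 5.25-fold lower than at 0 h, a difference of -2.39 ± 0.12 (adjusted p = 4.79e-06). The difference from 0 h was -3.88 ± 0.12 at 96 h (adjusted p = 2.98e-07) and -3.40 ± 0.12 at 144 h (adjusted p = 5.60e-07).

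Between culture times, FDXR was lower at 96 h than at 48 h by -1.49 ± 0.12 (adjusted p = 9.38e-05) and lower at 144 h than at 48 h by -1.01 ± 0.12 (adjusted p = 0.00181). It was higher at 144 h than at 96 h by 0.48 ± 0.12 (adjusted p = 0.0219). This last call did not hold when 144 h replicate 1 (adjusted p = 0.0541), 96 h replicate 1 (0.127) or 96 h replicate 2 (0.132) was left out, nor in a fit to only the 4 arrays compared (0.0650). Each neighbouring pair in the order 0 h, 48 h, 144 h, 96 h was called in the model over all arrays.

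CYP17A1, the androgen-forming enzyme of theca cells, was dim throughout. Its level was 2.96 and 2.96 at 0 h, 2.49 and 2.79 at 48 h, 3.15 and 2.93 at 96 h, and 2.70 and 2.88 at 144 h. All 8 arrays lay below their own lower quartile, between the 10.3 and the 24.1 percentile, so neither presence nor absence of the transcript is shown. Against 0 h the difference was -0.32 at 48 h (95% interval -0.65 to 0.01, adjusted p = 0.134), 0.08 at 96 h (-0.25 to 0.41, adjusted p = 0.704) and -0.17 at 144 h (-0.50 to 0.16, adjusted p = 0.434). The widest gap was at 96 h against 48 h, 0.40 (0.07 to 0.73, adjusted p = 0.0691). It passed after median centring (adjusted p = 0.0415) and without either 144 h array (0.0485).

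**Figure D1:**
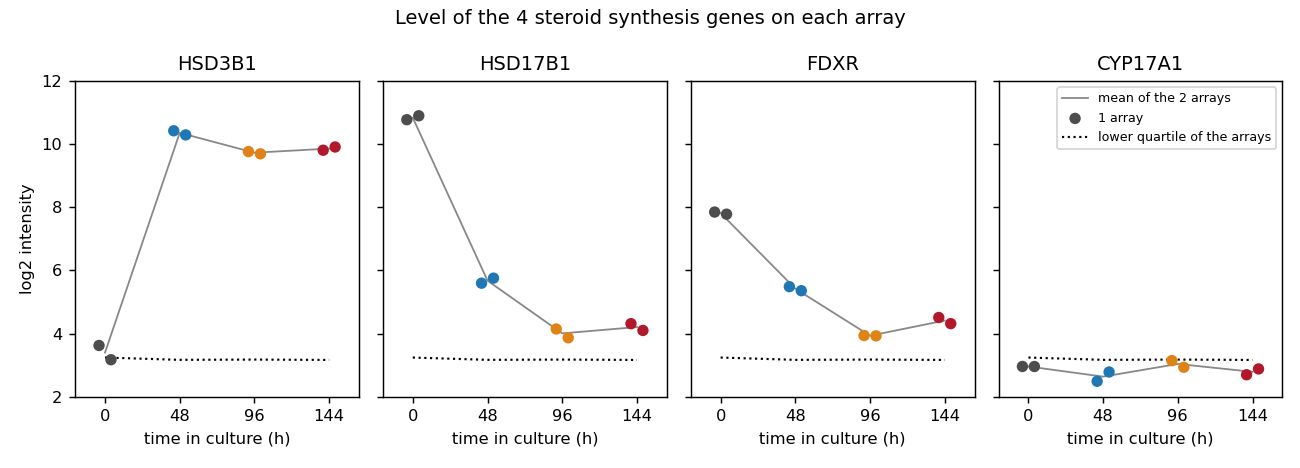
Log2 intensity (y axis) of HSD3B1, HSD17B1, FDXR and CYP17A1 against time in culture in hours (x axis). Each point is 1 array, the grey line joins the means of 2 arrays, and the dotted line is the mean lower quartile of the arrays of a time. HSD3B1 stands near the dotted line at 0 h and between 9.69 and 10.42 in culture, HSD17B1 and FDXR start high and fall, and CYP17A1 stays below the line.

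Set against all features, 1 of the 4 genes was higher and 2 were lower at each culture time against 0 h. The share of features called in either direction was 30.0% at 48 h, 41.3% at 96 h and 32.1% at 144 h. By direction, 15.2% of features were higher and 14.8% lower at 48 h, 19.0% and 22.3% at 96 h, and 15.4% and 16.7% at 144 h. At 96 h against 48 h none of the 4 was higher and 3 were lower, with 29.4% of features called (13.4% higher and 16.0% lower). At 144 h against 96 h, 1 was higher and none lower (22.2% of features called, 12.1% higher and 10.1% lower), and at 144 h against 48 h none was higher and 2 were lower (8.64% called, 4.32% in each direction). The comparisons with 0 h share the 0 h arrays.

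At 48 h against 0 h, where both levels lay well above the lower quartile, the fall of HSD17B1 ranked 2 in size among all falls and that of FDXR 175. These ranks are descriptions, since the genes were chosen with earlier results of these data known.

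**Figure D2:**
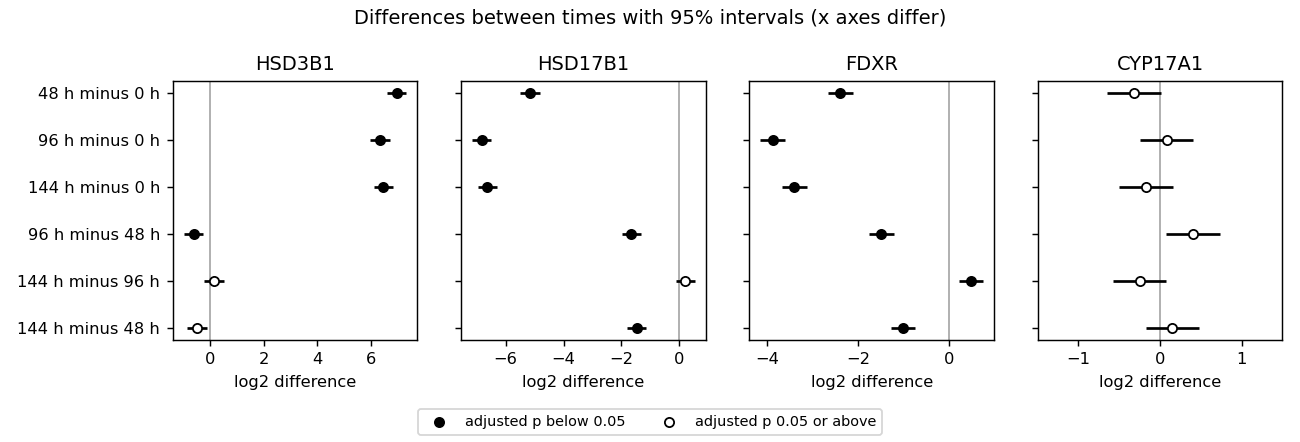
Log2 difference between 2 times (x axis, with its own range in each panel) for the 6 pairs of times (y axis). Points are differences of means of 2 arrays, bars are 95% intervals from the limma model, and filled points have an adjusted p below 0.05. HSD3B1 is about 6 to 7 higher at all culture times than at 0 h, HSD17B1 and FDXR are lower, and every CYP17A1 point is open.

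The other genes of the pathway were taken from lists by role, chosen with earlier results of these data known. Of 110 symbols besides the 4, 59 had a feature, of which 13 were higher and 18 lower at 48 h, 15 and 22 at 96 h, and 13 and 21 at 144 h against 0 h. Over all features, 15.2%, 19.0% and 15.4% were higher at these times, and 14.8%, 22.3% and 16.7% lower. The median difference of the 59 at 144 h was -0.13, beside -0.05 over all features. CYP11A1, FDX1, STAR and CYP19A1 (aromatase) were not analysed here, since no feature carried these symbols in the annotation used.

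The relatives of HSD3B1 and HSD17B1 among the hydroxysteroid dehydrogenases had differences from 0 h between -2.37 and 1.39. Of 10 others measured, 2 were higher and 2 lower at 48 h, 3 and 3 at 96 h, and 3 and 2 at 144 h. Over all features, 15.2%, 19.0% and 15.4% were higher at these times, and 14.8%, 22.3% and 16.7% lower. The medians of the 10 were between -0.14 and -0.07, beside -0.05 to -0.03 over all features. HSD3B7, an enzyme of bile acid synthesis, rose by 1.39 ± 0.18 at 96 h (adjusted p = 0.000377) and by 1.17 ± 0.18 at 144 h (adjusted p = 0.00137). At 48 h it was not called (0.52, adjusted p = 0.0603), while its other feature was (0.60, adjusted p = 0.0304). HSD17B14, which oxidizes estradiol in assays of the human enzyme, rose by 0.98 ± 0.11 at 144 h (adjusted p = 0.000277), with 9.16 and 9.08 at 144 h against 8.06 and 8.23 at 0 h. HSD17B7, an enzyme of cholesterol and estradiol synthesis, rose by 0.88 ± 0.17 at 96 h (adjusted p = 0.00370). Its differences of 0.77 at 48 h and 0.66 at 144 h were called, but not without 0 h replicate 1, and the first not without 48 h replicate 2, the second not without 144 h replicate 1.

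Others of this family fell. HSD17B8, a mitochondrial enzyme of fatty acid synthesis that also acts on estradiol, fell at 96 h to 4.84 and 4.89, against 7.18 and 7.29 at 0 h, a difference of -2.37 ± 0.14 (adjusted p = 5.66e-06). At 144 h it stood at 6.44 and 6.07, a rise of 1.39 ± 0.14 against 96 h (adjusted p = 0.000510). It was then still lower than at 0 h, by -0.98 ± 0.14 (adjusted p = 0.00099), beside -0.94 ± 0.14 at 48 h (adjusted p = 0.0015). HSD17B10, a mitochondrial dehydrogenase, was called against 0 h at 96 h, with -1.16 ± 0.12 (adjusted p = 0.000108), and at 144 h it was higher than at 96 h by 1.28 ± 0.12 (adjusted p = 0.000367). HSD11B1, which activates cortisone to cortisol, fell by 1.34 at 144 h (-1.34 ± 0.14, adjusted p = 0.000199). HSD11B2, the enzyme of the reverse reaction, stood 0.54 higher at 48 h (adjusted p = 0.0498), a call lost in 8 of 16 alternatives. HSD17B2, HSD17B3 and HSD17B13 were not called at any time against 0 h, and HSD17B3 lay below the lower quartile on all 8 arrays.

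Among genes of the P450 systems, 2 of the other 9 mitochondrial symbols and 3 of the other 8 microsomal ones had a feature. CYP27A1, a mitochondrial cholesterol hydroxylase that also takes its electrons from FDXR, rose by 1.24 ± 0.17 at 144 h (adjusted p = 0.000701). Cytochrome b5 (CYB5A), which aids the androgen-forming step of CYP17A1, fell at 48 h to 8.59 and 8.46 (adjusted p = 0.000305) and by 1.23 at 144 h (-1.23 ± 0.11, adjusted p = 7.54e-05). Its level was 8.26 and 8.34 at 144 h, against 9.46 and 9.59 at 0 h. PGRMC1, a heme-binding partner of P450 enzymes, had differences of 0.85 at 48 h and -0.85 at 144 h, and both calls were lost without the 96 h arrays. The first was also lost under quantile normalization and cyclic loess, and without 0 h replicate 2 or 48 h replicate 2. The second was also lost with only the 4 arrays compared, and without 0 h replicate 1 or 144 h replicate 1. CYP21A2 was not called, nor was CYP24A1, which lay below the lower quartile on all arrays.

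The lists of steroid reduction and of steroid conjugation each had 4 measured genes of 12 symbols, and not every member reduces or conjugates steroids. AKR1CL1, an aldo-keto reductase, fell by 1.40 at 96 h (-1.40 ± 0.23, adjusted p = 0.00134) and by 1.22 at 144 h (-1.22 ± 0.23, adjusted p = 0.00377). GSTA1, a glutathione transferase, had 11.69 and 11.68 at 0 h, 10.69 and 10.70 at 48 h, 4.02 and 4.30 at 96 h, and 2.84 and 3.76 at 144 h. At 96 h it was lower than at 48 h by -6.53 ± 0.26 (adjusted p = 6.81e-06). At 48 h against 0 h its difference was -0.99 (adjusted p = 0.0220), a call lost without any 1 of those 4 arrays. Its other feature gave -1.01 at 48 h (adjusted p = 0.00175). DHRS9 stood 0.84 higher at 96 h and 0.74 higher at 144 h, and both calls were lost without 0 h replicate 1. The 96 h call was also lost without 96 h replicate 1. The 144 h call was also lost with only the 4 arrays compared, and without 0 h replicate 2 or 144 h replicate 2. STS, SRD5A2, AKR1C1, SULT2A1 and UGT2B31 were not called against 0 h, and the last 4 lay below the lower quartile on all arrays. Another AKR1C1 feature, also dim (means 2.27 at 96 h and 2.63 at 0 h), was called lower at 96 h (adjusted p = 0.0377).

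**Figure D3:**
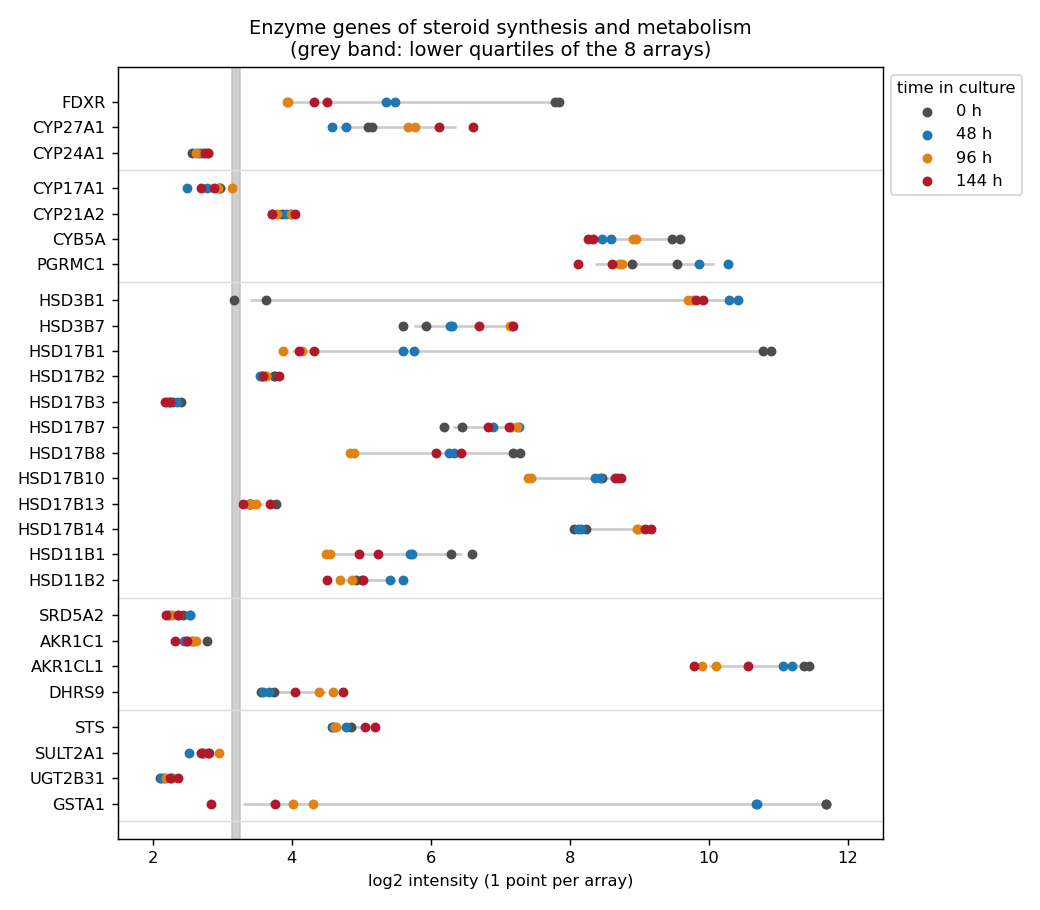
Log2 intensity (x axis) of the measured enzyme genes (y axis), grouped by list. From top to bottom these are mitochondrial P450 system, microsomal P450 system, hydroxysteroid dehydrogenases, and the lists of steroid reduction and steroid conjugation. Each point is 1 array, coloured by time, grey lines join the lowest and highest mean of a time, and the grey band spans the lower quartiles of the 8 arrays (3.13 to 3.25). HSD3B1, HSD17B1 and GSTA1 cover the widest ranges, and levels of different genes are not comparable.

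Genes listed under cholesterol supply were more often called higher than lower, while others were not called. The list also holds genes that do not supply cholesterol, such as the exporter gene ABCA1 and the protease gene LONP1. Of 13 measured, 7 were higher and 3 lower at 48 h, 7 and 2 at 96 h, and 6 and 3 at 144 h, with a median of 0.49 at 144 h, beside -0.05 over all features. Over all features, 15.2%, 19.0% and 15.4% were higher at these times, and 14.8%, 22.3% and 16.7% lower. At 144 h NPC2, which hands cholesterol out of the lysosome, rose by 1.83 ± 0.10 (adjusted p = 5.76e-06), and TSPO, an outer mitochondrial membrane protein, by 1.74 ± 0.18 (adjusted p = 0.000179). The cholesterol exporter ABCA1 rose by 1.58 ± 0.14, the mitochondrial channel VDAC1 by 1.02 ± 0.11 and the lysosomal lipase LIPA by 0.99 ± 0.11 (adjusted p = 5.57e-05, 0.000177 and 0.000234). STARD4, a cytosolic sterol carrier, rose by 1.76 ± 0.30 at 96 h (adjusted p = 0.00174) and differed by 0.83 at 144 h (adjusted p = 0.0684). Its 144 h arrays stood apart at 6.57 and 5.47, and the difference was 1.38 without replicate 2 (adjusted p = 0.000193) and 0.28 without replicate 1 (adjusted p = 0.154).

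Against these, SCARB1, the receptor that takes up cholesterol from HDL, fell by 1.08 at 144 h (-1.08 ± 0.18, adjusted p = 0.00214). CD36, a scavenger receptor, fell to levels below the lower quartile. The endosomal carrier STARD3 fell by 0.61 at 144 h (adjusted p = 0.00884), which missed the threshold with 0 h replicate 2 left out (adjusted p = 0.0519). STARD5 rose by 0.76 at 48 h and the protease gene LONP1 by 0.76 at 96 h (adjusted p = 0.00140 and 0.000839). NPC1 stood 0.68 higher at 48 h, a call lost without either 0 h array or 48 h replicate 1 and after quantile or loess normalization, and LIPE was not called.

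Most measured receptors that act on this pathway were lower. Of 10 receptors measured, none was higher and 6 were lower at 48 h, and 1 was higher and 7 lower at both later times. Their median was -1.42 at 144 h. Among all features, 15.2%, 19.0% and 15.4% were higher at 48 h, 96 h and 144 h, and 14.8%, 22.3% and 16.7% lower. The 48 h call of PRLR was lost under cyclic loess, without the 96 h arrays and without any 1 of the 4 arrays compared. ESR1, the estrogen receptor alpha gene, differed by -5.38 ± 0.20 at 96 h and -4.18 ± 0.20 at 144 h (adjusted p = 7.04e-07 and 2.71e-06), while its other 3 features gave -3.24 to -4.23 at 96 h and -3.19 to -3.49 at 144 h. LHCGR, the luteinizing hormone receptor gene, was not called at 48 h (-0.15 ± 0.28, adjusted p = 0.738). At 96 h LHCGR differed from 0 h by -5.25 ± 0.28 (adjusted p = 3.19e-06), and at 144 h by -4.95 ± 0.28 (adjusted p = 5.88e-06). Its difference between 144 h and 96 h was not called (0.30, adjusted p = 0.504). GHR, NR3C2, PRLR, INSR and PGR fell at 144 h by 2.35, 2.32, 1.46, 1.38 and 1.30, with adjusted p of at most 0.00111. The glucocorticoid receptor gene NR3C1, the 1 counted as higher, differed by 0.58 at 144 h, a call lost without 0 h replicate 1. ESR2 and IGF1R were not called. The features of NR3C1 differed in course. At 96 h the one used differed by 0.38 (adjusted p = 0.0425), a call lost in 6 of 15 alternatives, and the other by 1.37 ± 0.17 (adjusted p = 0.000323). The other feature was then lower at 144 h than at 96 h by -0.73 (adjusted p = 0.0187). For INSR at 96 h, the feature used gave -2.06 and the one that differed most from it -0.92 (adjusted p = 0.00193), and all 3 were called.

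Of 13 regulators measured, 3 were higher and 5 lower at 48 h, 2 and 7 at 96 h, and 1 and 5 at 144 h. Their median was -0.17 at 144 h. The shares of all features at these times were 15.2%, 19.0% and 15.4% higher, and 14.8%, 22.3% and 16.7% lower. The 48 h call of RUNX1 was lost under quantile normalization and cyclic loess, without the 96 h arrays, and without either 0 h array or 48 h replicate 2. NR5A2, a nuclear receptor that drives steroidogenic genes in granulosa cells, fell by 3.94 at 144 h (-3.94 ± 0.27, adjusted p = 1.72e-05). NR5A1 (steroidogenic factor 1) fell by 1.70 at 96 h (-1.70 ± 0.14, adjusted p = 3.59e-05) and by 0.75 at 144 h (-0.75 ± 0.14, adjusted p = 0.00441). Its other feature gave -1.14 ± 0.12 at 144 h (adjusted p = 0.000148). The feature used was higher at 144 h than at 96 h by 0.95 (adjusted p = 0.00276), and the other was not called there (-0.14, adjusted p = 0.438). GATA6, NR4A2 and SP1 fell at 144 h by 1.46, 1.45 and 0.67 (adjusted p = 6.72e-05, 0.000118 and 0.00277). SOX9 was the regulator that rose at 144 h, by 2.16 ± 0.14 (adjusted p = 1.37e-05), with 7.23 and 7.41 at 144 h against 5.30 and 5.01 at 0 h. RUNX1 rose by 0.86 at 96 h (adjusted p = 0.00189) and CREM fell by 0.62 (adjusted p = 0.00483). CITED2 differed by -0.70 at 96 h and NR2F2 by 0.63 at 48 h, calls that were lost without some single arrays of those times. NR0B1, NR0B2 and CREB1 were not called.

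**Figure D4:**
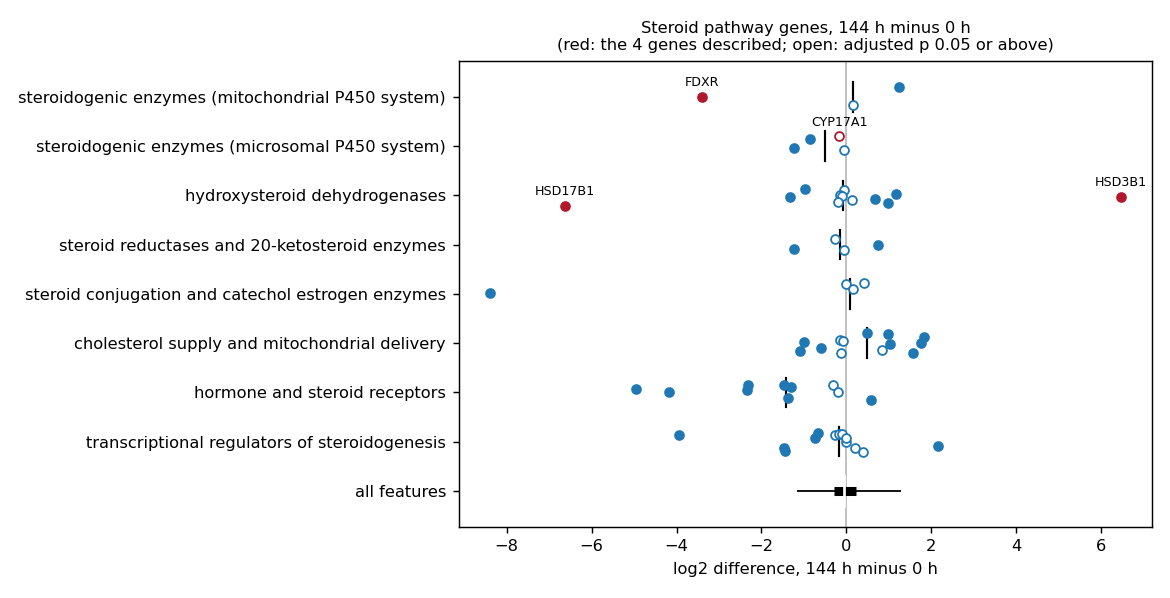
Log2 difference of 144 h minus 0 h (x axis) for the 63 measured pathway genes by list (y axis). Each point is a gene, the 4 described genes are red, open points have an adjusted p of 0.05 or above, black ticks are list medians, and the bottom row shows the 25 to 75 and the 5 to 95 percentile range of all features. HSD3B1 at 6.46 and HSD17B1 at -6.63 lie far outside that range, as does GSTA1 at -8.39, which is not among the 4. LHCGR, ESR1 and NR5A2 lie lower than FDXR at -3.40.

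For each of the 4 genes, the named genes with the most similar course were those with the smallest root mean square gap over the 8 arrays, after each log2 profile was centred on its own mean, out of 10703 genes. The points share their arrays and the 4 times. Nearest to HSD3B1 were LOX (gap 0.41), which encodes lysyl oxidase, CLIP4 (0.53) and POSTN (0.62), which encodes periostin and is among the stroma markers below. CLIP4 and POSTN were called lower at 96 h than at 48 h and higher again at 144 h, while LOX was called higher at 96 h than at 48 h. Nearest to HSD17B1 were PLA2G4E (gap 0.50), SNX31 (0.67) and DAPL1 (0.75). Nearest to FDXR were PPAT (gap 0.22), which encodes an enzyme of purine synthesis, SLITRK5 (0.24) and LAMA2 (0.24), which encodes a laminin chain. PPAT had 8.83 and 8.70 at 0 h, 6.48 and 6.48 at 48 h, 4.67 and 4.87 at 96 h, and 5.17 and 5.73 at 144 h, the same order of times as FDXR. Nearest to CYP17A1 were NUPR2 (gap 0.04), CDHR1 (0.05) and UNCX (0.05), none of which was called in any of the 6 comparisons.

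Markers of cell types changed along with these genes. Of 11 granulosa markers, 5 had a feature, and the 4 besides HSD17B1 (AMH, INHBA, FST and NR5A2) had a mean log2 level of 9.39 to 9.48 on the 0 h arrays. It was 7.72 on both 48 h arrays, 6.33 to 6.37 at 96 h and 5.86 to 6.52 at 144 h, and all 4 were lower than at 0 h at each culture time. INHBA had a mean of 9.31 at 144 h, against 11.60 at 0 h. The 6 measured of 8 fibroblast or stroma markers (DCN, LUM, COL1A1, COL3A1, PDGFRB and POSTN) averaged 4.81 to 4.91 at 0 h, 8.32 to 8.35 at 48 h, 8.89 at 96 h, and 9.83 to 9.99 at 144 h. All 6 were higher than at 0 h at each culture time, and COL1A1 had a mean of 12.07 at 144 h, against 6.10 at 0 h. For comparison, 15.2%, 19.0% and 15.4% of all features were higher than at 0 h at 48 h, 96 h and 144 h. The shares called lower were 14.8%, 22.3% and 16.7%. The part of either shift in the values of HSD3B1, HSD17B1 and FDXR was not tested.

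Theca markers bear on CYP17A1. The other 6 measured of 10 averaged 5.08 to 5.09 at 0 h and 5.57 to 5.99 at 144 h, and the theca hormone gene INSL3 was lower at 144 h than at 0 h (mean 4.16 against 5.76, adjusted p = 2.32e-05). ANPEP, a peptidase that stromal cells also carry, was the 1 that rose at 144 h (mean 9.53 against 3.73), and NR2F2 was not called (mean 6.21 against 6.23). For this and the lists that follow, 15.4% of all features were higher at 144 h than at 0 h and 16.7% lower. The 5 endothelial markers averaged 3.61 to 3.86 at 144 h and 3.71 to 3.72 at 0 h, and 1 was higher and 1 lower at 144 h. PECAM1 was higher (mean 5.68 against 4.54, adjusted p = 0.000550), and KDR was lower (mean 3.06 against 3.72, adjusted p = 0.00374). The 5 leukocyte markers averaged 3.90 to 4.13 at 144 h and 4.31 to 4.41 at 0 h, with 1 higher and 2 lower, among them TYROBP (mean 5.40 against 6.49). The 3 red cell markers averaged 2.76 to 2.90 at 144 h and 3.18 to 3.23 at 0 h, with HBB and ALAS2 below the lower quartile on both arrays of each time. The 7 oocyte markers averaged 3.45 to 3.46 at 144 h and 5.27 to 5.49 at 0 h, and 6 were lower at 144 h, among them GDF9 (mean 5.64 against 6.91). Their part in the fall of HSD17B1 and FDXR was not tested.

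**Figure D5:**
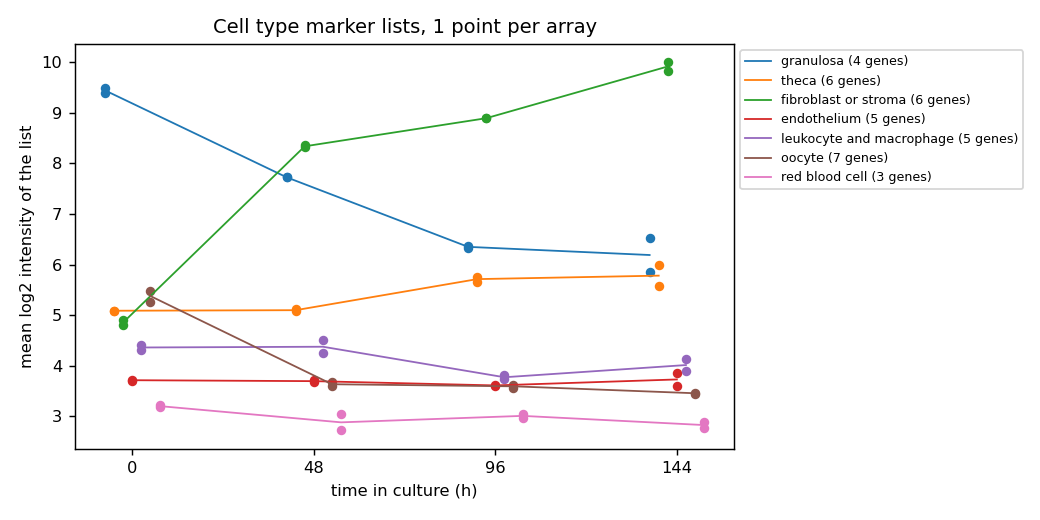
Mean log2 intensity of each cell type marker list (y axis) against time in culture in hours (x axis). Points are the 2 arrays of a time and lines join their midpoints, with HSD17B1 and CYP17A1 left out of the granulosa and theca lists. Granulosa markers go down to between 5.86 and 6.52 at 144 h, and fibroblast or stroma markers go up to between 9.83 and 9.99.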

How the data were processed

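The deposited table held log2 intensities per feature, which the authors made with RMA, per the submitters' processing notes (software, version and settings: not given in the sources used here). Biotin labelling used an Affymetrix whole-transcript kit, per the labels' protocols. The table was used as deposited, without further normalization or filter. Its 27558 features were named by the platform annotation: 11735 had 1 symbol (6 of them updated through the gene identifier), 612 several and 15211 none. Only features with 1 symbol were named. A gene with several features was represented by the one with the highest mean over the 8 arrays.

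A limma 3.58.1 model (R 4.3.3, lmFit and eBayes) estimated a mean for each time from all 8 arrays together, with 4 residual and 3.98 prior degrees of freedom. The 6 pairs of times were tested two-sided, and the 4 times by an F test. The median SE of a difference was 0.143. The number of arrays limits the precision. The labels name no batch. Any batch aligned with the times cannot be told apart from them. The steps were tested on simulated data.

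Sequences and motifs were not analysed here. The 4 genes and the lists were chosen with earlier results of these data known. Genes named in the text are the 4, every measured gene of the pathway lists, the 3 most similar genes to each of the 4, and cell type markers by list. Alternatives were median centring, quantile normalization, cyclic loess, leaving out dim features (18019 kept, above their array's 40 percentile on at least 2 arrays), eBayes with trend and robust, only the 4 arrays compared, the replicate block, no 96 h arrays, and leaving out each array.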

Additional observations from a re-analysis of the deposited data

How the results depend on the processing

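Against 0 h, HSD3B1, HSD17B1 and FDXR kept their direction and their call in all 15 or 16 alternatives run per comparison. These are not all distinct, since leaving out either array of a time not compared gives the same result. For HSD3B1 the difference ran from 6.73 to 7.19 at 48 h, 6.11 to 6.56 at 96 h and 6.24 to 6.69 at 144 h. HSD17B1 ran from -5.24 to -5.08, -6.97 to -6.69 and -6.74 to -6.52, and FDXR from -2.48 to -2.30, -3.92 to -3.78 and -3.50 to -3.31. The calls of HSD17B1 and FDXR at 96 h and 144 h against 48 h held in all alternatives too. Leaving out single arrays gave HSD3B1 differences of -0.69 to -0.56 at 96 h against 48 h. For FDXR at 144 h against 96 h it gave 0.38 to 0.58, and the fit to only the 4 arrays compared gave 0.48 with adjusted p = 0.0650. For CYP17A1 at 96 h against 48 h it gave 0.255 to 0.55, and median centring gave 0.44. CYP17A1 was dropped by the filter on dim features, and its uncalled difference at 96 h against 0 h changed sign without 96 h replicate 1 (-0.02). A fit that leaves 1 array at a time assumes that it varies like the others. Same-numbered arrays deviated from their time means with correlations of -0.04 to 0.19. With 2 arrays a time, these cannot show whether same-numbered arrays share an origin. The replicate block moved no call of the 4 genes: FDXR at 144 h against 96 h kept adjusted p = 0.0229, and 8233 features were called at 48 h against 0 h, beside 8260 without it. The count of called features at 144 h against 48 h, 2381, was 825 with only the 4 arrays compared, 1576 without the 96 h arrays, and 1070 to 3879 without single arrays. At 96 h against 48 h it was 4198 to 10294 without single arrays, beside 8089, and at 144 h against 96 h 2437 to 7320, beside 6115. Of the 102 called differences of other pathway genes against 0 h, 80 kept their call in every alternative and 22 lost it in at least 1, and of 75 uncalled ones 13 passed in at least 1. None reversed. By correlation over the 8 arrays in place of the gap, 0 of the 3 most similar genes were shared for HSD3B1 and for HSD17B1, 1 for FDXR and 2 for CYP17A1. Each of the 4 genes had 1 feature, so no other feature and no mean of features could be tried. The cause of these shifts was not tested.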

Other observations

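The genes that lie next to the 4 in the pig assembly Sscrofa11.1 were looked up after the values of the 4 were seen, taking the nearest 2 with a feature on each side. Around HSD3B1, 3 of these 4 neighbours were higher at 48 h than at 0 h, beside 15.2% of all features. They were PHGDH, the first enzyme of serine synthesis, at 1.68 ± 0.21 (adjusted p = 0.000591), ZNF697 at 1.04 ± 0.13 (adjusted p = 0.000663) and HAO2, a peroxisomal oxidase gene, at 0.76 ± 0.17 (adjusted p = 0.0108). TBX15 was not called (mean 2.21 at 48 h and 2.30 at 0 h). At 96 h only PHGDH was higher than at 0 h, at 0.85 ± 0.21 (adjusted p = 0.0124), while HSD3B1 was still 6.33 above it. At 144 h the same 3 neighbours were higher again. Among all features, 19.0% were higher at 96 h and 15.4% at 144 h.

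Called higher than at 0 h were 15.2%, 19.0% and 15.4% of all features at 48 h, 96 h and 144 h. The shares called lower were 14.8%, 22.3% and 16.7%. Counts out of 4 neighbours are descriptions here. Around HSD17B1 the neighbours went both ways at 48 h against 0 h. COASY, a gene of coenzyme A synthesis, fell by 0.82 (-0.82 ± 0.14, adjusted p = 0.00285) and MLX by 0.39 (-0.39 ± 0.12, adjusted p = 0.0386), STAT3 rose by 1.01 ± 0.11 (adjusted p = 0.000272), and STAT5A was not called. At 96 h STAT5A was lower by -1.69 ± 0.13 (adjusted p = 1.86e-05), and at 144 h, with 1 neighbour higher and 3 lower, by -0.52 (adjusted p = 0.0135). Of the 4 neighbours of FDXR (USH1G, FADS6, TMEM104 and NAT9), none was called at 48 h or 144 h against 0 h by limma, and NAT9 alone fell at 96 h, by 0.40 (adjusted p = 0.0326). Around the dim CYP17A1, 2 of 4 neighbours were higher and 1 lower at each time. NT5C2 rose by 0.43, 0.48 and 0.75 at 48 h, 96 h and 144 h (adjusted p = 0.0481, 0.0240 and 0.00384), and ARL3 was not called. WBP1L rose by 1.41 ± 0.11 at 96 h against 0 h (adjusted p = 2.54e-05) and BORCS7 fell by 1.01 (-1.01 ± 0.15, adjusted p = 0.000792).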
